A study of Mus musculus with 32 samples.

Results

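Immediate early genes are the first genes a cell transcribes after a growth factor, a cytokine or a stress reaches it, because the proteins that switch them on are already present and need no new protein synthesis. Signals pass through the MAP kinases ERK, JNK and p38 to factors such as SRF, the ELK proteins and CREB, which sit on the promoters of these genes. Most of their mRNAs are short-lived, and many of the proteins are transcription factors that act on a later set of genes. In the kidney they are known to respond to toxins, loss of blood flow and handling of the tissue. Described here are 10 of them, chosen by name from the 54532 genes of the count table: the AP-1 subunits *Fos*, *Fosb*, *Jun* and *Junb*, the zinc finger factor *Egr1*, the nuclear receptor *Nr4a1*, the growth regulator *Myc*, *Ier2*, *Ier3*, and the phosphatase *Dusp1*. All 10 were in the table and all 10 passed the filter on low counts in every comparison.

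The libraries came from whole kidneys of 32 wild type C57BL/6 mice, in 8 groups of 4, males and females of Day 0 and of 3 later times. The mice of the later times, taken at Day 2, Day 3 or Day 5, had been given a single intraperitoneal dose of 20 mg/kg cisplatin, a platinum drug that injures the kidney tubule, and mice were 6 to 8 weeks old. Day 0 mice are described by the study as healthy, although the labels list cisplatin as the treatment of Day 0 females and none for Day 0 males. Each library was 1 mouse and total RNA of a whole kidney, so fewer cells of a type and less RNA per cell cannot be told apart. The comparisons address how the kidney changes with time after cisplatin and whether males and females differ.

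Several libraries stood apart. Library totals ran from 16502107 to 35961325 counts. The share of counts on mitochondrial genes was 4.49 to 24% at Day 0 to Day 3, with the highest values in male Day 0 mouse 4 (24%) and female Day 0 mouse 4 (19.7%). At Day 5 it was 42.5 to 79.8% in males and 9.3 to 77.9% in females. *Xist*, the RNA of the inactive X chromosome, had 4153 counts in mouse 1 of the male Day 5 label and 59 to 260 in the other Day 5 males, and the same library held 387 counts of Y-linked genes. At Day 0, female mouse 1 held 221 counts of Y-linked genes, the other 3 females 5 to 66, and male mouse 4 held 242 counts of *Xist*, while every female after Day 0 had 0 Y-linked counts. Female Day 0 mouse 4 had the highest level of its group in 9 of the 10 genes, the exception being *Ier2*. As a check of the tissue, the summed level of 10 proximal tubule markers was 2150 to 92800 CPM (counts scaled to a common library size) over the libraries, lowest at Day 5 in males, and that of 6 podocyte markers 145 to 615 CPM.

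Promoters were available for 7 of the 10 genes from RefSeq (build GRCm38.p6), and those of *Egr1*, *Ier2* and *Myc* were not used here. The 250 bases before the RefSeq start site of each gene were searched for the core of the cAMP response element, the letters that CREB binds, as TGACG on either strand, where CGTCA is the same site read from the other strand. It was found in 5 genes, *Fos*, *Fosb*, *Junb*, *Nr4a1* and *Dusp1*, and not in *Jun* or *Ier3*, while 17.8% of all 32851 promoters held it. Whole sequences are shown for the 3 genes with more than 1 match, on the strand of the gene, with the matches in capitals. *Fos* lies on chromosome 12 (chr12:85473640-85473889, plus strand) and held the core at -129 and at -66 from the start, and a TATA box, TATAAA, at -33, which 7.59% of promoters held. *Nr4a1* (chr15:101266596-101266845, plus strand) held the core 4 times, in a stretch that lies within the gene as listed, in an intron of a longer transcript. *Dusp1* (chr17:26508520-26508722, minus strand, shown up to the gene as the count table places it, which begins 47 bases before the RefSeq start that positions count from) held it at -191 and held the full palindrome TGACGTCA at -143, in which the core reads on both strands, and which 1.55% of promoters held.
Fos: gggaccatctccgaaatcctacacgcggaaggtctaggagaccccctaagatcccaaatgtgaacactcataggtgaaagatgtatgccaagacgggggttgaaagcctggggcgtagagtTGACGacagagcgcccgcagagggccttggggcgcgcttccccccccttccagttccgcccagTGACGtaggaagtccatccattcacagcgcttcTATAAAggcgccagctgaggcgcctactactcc
Nr4a1: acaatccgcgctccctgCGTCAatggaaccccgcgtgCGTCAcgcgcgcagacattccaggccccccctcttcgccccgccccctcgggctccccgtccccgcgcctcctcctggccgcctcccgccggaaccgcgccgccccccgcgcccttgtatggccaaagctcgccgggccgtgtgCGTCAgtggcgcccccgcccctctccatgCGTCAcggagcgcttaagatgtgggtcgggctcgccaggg
Dusp1: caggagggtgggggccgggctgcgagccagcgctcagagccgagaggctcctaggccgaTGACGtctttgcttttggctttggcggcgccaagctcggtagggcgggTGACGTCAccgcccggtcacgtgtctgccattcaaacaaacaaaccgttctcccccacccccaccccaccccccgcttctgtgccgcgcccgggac

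In *Fosb* and *Junb* the core stood once, and 31 bases around it are shown for comparison with the sites above. The *Fosb* window is chr7:19310088-19310118 (minus strand) with the core at -60, and the *Junb* window is chr8:84978837-84978867 (minus strand) with the core at -106. The CArG box, which SRF binds, was found in none of the 7 windows and in 1.47% of all promoters. A match of letters is a description of the sequence, and its absence says only that the letters are not in this window.
Fosb: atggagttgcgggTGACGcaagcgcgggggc
Junb: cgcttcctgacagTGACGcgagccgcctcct

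Compared per length, as FPKM (counts scaled by gene length and library size, as deposited), the medians over the 32 libraries fell in the order *Junb* 33, *Ier3* 30.6, *Dusp1* 28.2, *Ier2* 23.1, *Jun* 21.2, *Egr1* 17.4, *Fos* 9.88, *Nr4a1* 6.59, *Myc* 2.2 and *Fosb* 0.506. The ranges over libraries of every neighbouring pair in this order overlapped. *Fosb* was the rarest, and in Day 0 males it held 0 to 19 counts, so its folds rest on few reads. The spread between mice of one group was widest for *Nr4a1*, *Fos* and *Egr1*, with mean within-group SDs of 0.89, 0.85 and 0.84 log2 CPM, and narrowest for *Ier3* (0.35) and *Myc* (0.39). From here on levels are given as CPM scaled with the TMM factors of edgeR, which compare one gene between libraries.

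**Figure D1:**
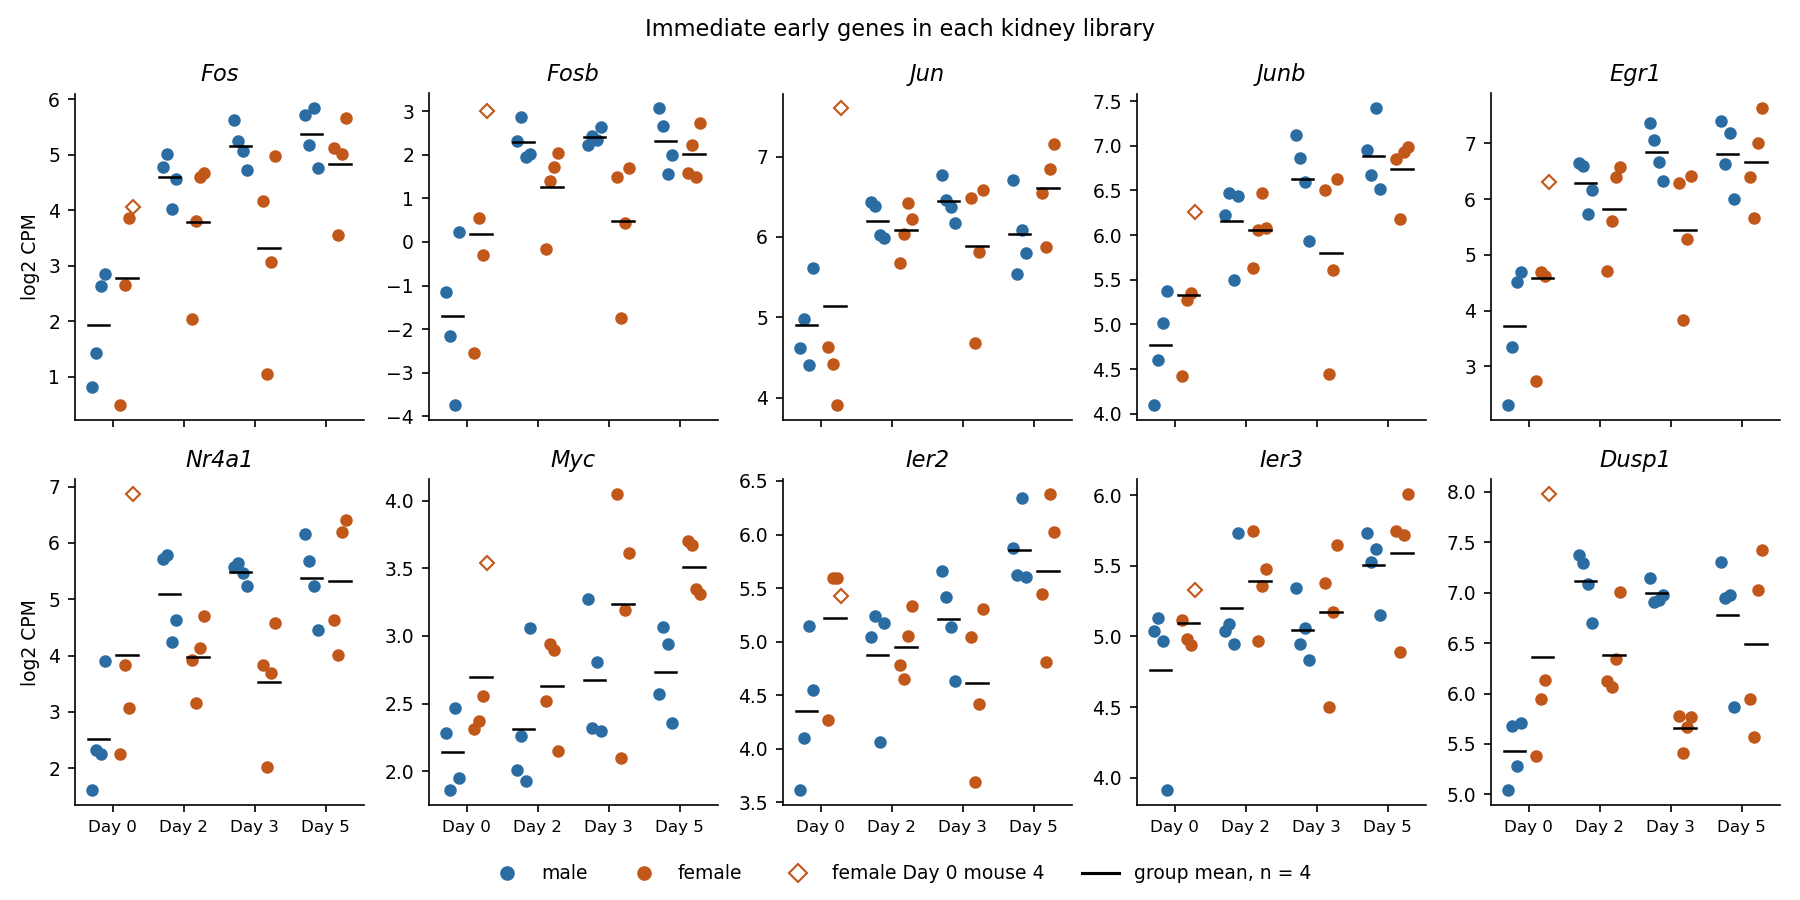
Level of each gene in each library as log2 CPM (vertical axis) by day (horizontal axis), with males in blue, females in orange and the mean of each group of 4 mice as a bar. Males of Day 2, Day 3 and Day 5 lie above males of Day 0 for *Fos*, *Fosb*, *Junb*, *Egr1*, *Nr4a1* and *Dusp1*, while female Day 0 mouse 4 (open diamond) lies above the other Day 0 females for *Jun*, *Nr4a1* and *Dusp1*.

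In males the AP-1 genes, *Egr1*, *Nr4a1* and *Dusp1* rose after cisplatin and had not come down by Day 5. A gene was called changed at a Benjamini-Hochberg adjusted p under 0.05 over all genes tested in edgeR's quasi-likelihood test, and a DEG, by the study's rule, also had an absolute log2 fold change over 1.5. Against Day 0, 6 of the 10 genes rose at Day 2, where 1.81% of all genes tested rose, 7 at Day 3 (11.4% of all) and 8 at Day 5 (8.98% of all), and none fell on any day. As DEGs there were 4, 6 and 5 (0.517%, 1.87% and 3.83% of all genes). At Day 2 every treated library lay above every Day 0 library for 7 genes, which 12.3% of all genes did, at Day 3 for 7 (20.9%) and at Day 5 for 8 (11.2%). The median log2 change of the 10 genes was 1.53, 1.69 and 1.81 at Day 2, Day 3 and Day 5, and the median of all genes 0.03, 0.02 and 0.04. *Myc* and *Ier3* passed edgeR's test on no day in males. DESeq2 called 7, 7 and 8 of the 10 at Day 2, Day 3 and Day 5 (9.04%, 18% and 14.2% of all genes in either direction). Limma voom with sample quality weights, an alternative test, called 7, 8 and 10 (46.4%, 57.1% and 54.8%), so *Myc* and *Ier3* were among its calls at Day 5.

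*Fos* (chromosome 12, 85473890 to 85477273, plus strand), the subunit that pairs with a JUN protein to form AP-1, stood at 1.68, 2.6, 6.13 and 7.13 CPM in the 4 males of Day 0. At Day 2 the males held 27.6, 32, 16.1 and 23.6 CPM, at Day 3 49.3, 38, 33.4 and 26.4 CPM and at Day 5 52.6, 35.9, 57.2 and 27.2 CPM. No treated male overlapped a Day 0 male. The log2 fold change was 2.5 (SE 0.45, adjusted p = 0.0353) at Day 2, 3.05 (SE 0.45, adjusted p = 0.00653) at Day 3 and 3.36 (SE 0.471, adjusted p = 0.00543) at Day 5, a 10.2-fold difference on the last day.

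*Fosb* (chromosome 7, 19302696 to 19310051, minus strand), a relative of *Fos* whose protein also needs a JUN partner, was close to the detection limit in Day 0 males, with 0.38, 0.15, 0 and 1.09 CPM. It stood at 3.78 to 7.28 CPM at Day 2, at 4.63 to 6.18 CPM at Day 3 and at 2.9 to 8.34 CPM at Day 5, each time above every Day 0 male. The log2 fold change of 3.68 at Day 2 did not pass (adjusted p = 0.0518), and those of 3.77 at Day 3 (SE 0.809, adjusted p = 0.017) and 3.83 at Day 5 (SE 0.925, adjusted p = 0.0226) did. These were the largest fold changes of the 10 genes and also those with the largest errors.

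*Jun* (chromosome 4, 95049034 to 95052222, minus strand), the main partner of the FOS proteins and a target of JNK, stood at 24.5, 31.4, 21.1 and 48.8 CPM in Day 0 males. The Day 2 males held 86.1, 83.1, 65 and 63.2 CPM and the Day 3 males 109, 87.9, 82.5 and 71.7 CPM, all above Day 0. At Day 5 the values were 105, 46.5, 68.2 and 55.6 CPM, and mouse 2 lay below the highest Day 0 male. The log2 fold change was 1.25 (SE 0.264, adjusted p = 0.0446), 1.48 (SE 0.267, adjusted p = 0.0108) and 1.19 (SE 0.318, adjusted p = 0.0306) at Day 2, Day 3 and Day 5. On the opposite strand *Jun* overlaps *Junos* by 689 bases, and since the strandedness of the counting is not given in the sources used here, reads of the pair could not be told apart. *Junos* held 0 to 50 counts in any library and did not pass the test in males on any day.

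*Junb* (chromosome 8, 84974484 to 84978718, minus strand), a JUN family member that can dampen the activity of JUN, rose from 17, 24.2, 32.3 and 41.4 CPM in Day 0 males to 74.9, 88.6, 45.3 and 86.7 CPM at Day 2. It held 139, 116, 97.2 and 61.5 CPM at Day 3 and 123, 102, 172 and 91.8 CPM at Day 5. The log2 fold change was 1.37 (SE 0.306, adjusted p = 0.0491), 1.84 (SE 0.328, adjusted p = 0.0104) and 2.15 (SE 0.316, adjusted p = 0.00615), and the groups did not overlap on any day. *Junb* overlaps *Prdx2* on the other strand by 351 bases, and *Prdx2*, a peroxidase gene with up to 16003 counts, moved the other way, with a log2 change of -1.1 at Day 3 in males (adjusted p = 0.0168).

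*Egr1* (chromosome 18, 34859823 to 34864984, plus strand), a zinc finger factor switched on by ERK signalling, was at 4.88, 10.1, 22.8 and 25.8 CPM in Day 0 males. It reached 101, 96.7, 52.9 and 71.7 CPM at Day 2, 164, 134, 101 and 80.5 CPM at Day 3 and 169, 99.1, 146 and 64.3 CPM at Day 5. Every treated male lay above every Day 0 male. On the log2 scale the change was 2.34 (SE 0.485, adjusted p = 0.0446), 2.91 (SE 0.509, adjusted p = 0.01) and 2.97 (SE 0.527, adjusted p = 0.0104).

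*Nr4a1* (chromosome 15, 101254269 to 101274795, plus strand), an orphan nuclear receptor that CREB and MEF2 switch on, stood at 2.98, 4.9, 4.67 and 15 CPM in Day 0 males. The Day 2 males fell into 52.8 and 54.9 CPM in mice 1 and 2 and 18.9 and 24.7 CPM in mice 3 and 4, the Day 3 males lay close together at 37.8 to 49.6 CPM, and the Day 5 males at 21.9 to 71.6 CPM. Every treated male was above Day 0. Its log2 fold change was 2.47 (SE 0.554, adjusted p = 0.0491), 2.71 (SE 0.462, adjusted p = 0.00931) and 2.8 (SE 0.53, adjusted p = 0.0124).

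*Dusp1* (chromosome 17, 26505590 to 26508519, minus strand) encodes the phosphatase that switches JNK and p38 off again, and it changed with the smallest error of the 10 genes in males at Day 2 and Day 3. It stood at 32.8, 51.3, 38.8 and 52.3 CPM in Day 0 males. At Day 2 it held 166, 156, 136 and 104 CPM, at Day 3 142, 120, 122 and 126 CPM and at Day 5 157, 123, 126 and 58.4 CPM. The log2 fold change was 1.69 (SE 0.213, adjusted p = 0.0145), 1.54 (SE 0.17, adjusted p = 0.00349) and 1.47 (SE 0.301, adjusted p = 0.0141), and no treated male overlapped Day 0.

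*Ier2*, a short gene whose nuclear protein acts in transcription, passed in males at Day 5, with 58.5, 49.2, 80.7 and 48.6 CPM against 12.2, 17.1, 35.5 and 23.3 CPM at Day 0 (log2 fold change 1.48, SE 0.337, adjusted p = 0.0186). Its Day 2 and Day 3 values, 16.6 to 37.6 and 24.8 to 50.6 CPM, overlapped Day 0, with log2 changes of 0.49 (adjusted p = 0.392) and 0.79 (adjusted p = 0.12). The Day 3 change of *Ier2* passed with limma voom and sample quality weights, an alternative test (adjusted p = 0.00657) and without male Day 0 mouse 3 (adjusted p = 0.019). *Ier3*, whose protein bears on cell survival, lay at 31.3 to 35 CPM in 3 Day 0 males and at 15 CPM in mouse 4. Its treated values in males ran from 28.4 to 53.1 CPM, and its log2 changes were 0.41, 0.22 and 0.74 (adjusted p = 0.352, 0.533 and 0.0841).

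*Myc* (chromosome 15, 61985391 to 61990374, plus strand) drives growth and ribosome production. It stood at 3.55 to 5.47 CPM in Day 0 males, at 3.74 to 8.29 CPM at Day 2, at 4.86 to 9.55 CPM at Day 3 and at 5.05 to 8.32 CPM at Day 5, and the groups overlapped throughout. The log2 changes were 0.24, 0.57 and 0.66 (adjusted p = 0.623, 0.149 and 0.134), with a 95% interval at Day 5, before adjustment, of 0.09 to 1.23.

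The count of called genes at Day 2 in males varied more than the later ones when 1 library was left out. It held 0 genes when any one of male Day 0 mice 1 and 2 or male Day 2 mice 2 and 3 was left out, 1 gene when male Day 2 mouse 1 or 4 was, and 7 genes when male Day 0 mouse 3 or 4 was. Over these 8 fits at Day 2 the log2 change ran from 2.22 to 2.83 for *Fos*, 1.09 to 1.55 for *Jun* and 1.17 to 1.6 for *Junb*. It ran from 2.03 to 2.68 for *Egr1*, 2.21 to 3.19 for *Nr4a1* and 1.56 to 1.8 for *Dusp1*. The highest adjusted p of these 6 genes in edgeR's test lay between 0.0704 for *Dusp1* and 0.138 for *Junb*. The shares of all genes called in these fits are not given here. At Day 3 the count of called genes ranged from 6 to 8. At Day 5 it ranged from 5 to 8, with 5 genes after leaving out male Day 0 mouse 2 or male Day 5 mouse 3, and 8 without the library labelled male Day 5 mouse 1. All 4 male Day 5 libraries held over 30% mitochondrial counts, so that state and Day 5 cannot be told apart in males.

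Cell type markers moved with the same comparisons. Summed over 7 erythroid markers, Day 0 males held 483 to 2170 CPM, Day 2 males 37.9 to 221, Day 3 males 19.8 to 33.6 and Day 5 males 251 to 5580 CPM, so that every Day 0 library held more erythroid marker RNA than every Day 2 and Day 3 library. The 9 endothelial markers summed to 635 to 669 CPM at Day 0, to 734 to 1070 at Day 2 and to 758 to 813 at Day 3, with 2 of 9 higher at both days, and the 6 podocyte markers to 156 to 296, 354 to 492 and 380 to 457 CPM. The 13 neutrophil markers lay at 3.05 to 7.36 CPM at Day 0 and at 1.73 to 10.1 and 3.44 to 6.92 CPM at Day 2 and Day 3 in males, with *Mpo* at 0 counts in all 32 libraries and *Ly6g* at 0 in 28. At Day 5 they reached 12 to 246 CPM. The 10 injured tubule markers summed to 824 to 1120 CPM at Day 0 and to 649 to 1930, 808 to 2000 and 1070 to 3120 CPM after cisplatin in males. None of them was called at Day 2. At Day 3, where 11.4% of all genes rose, *Lcn2* and *Cdkn1a* alone were called, at log2 3.53 and 3.09 (adjusted p = 0.0155 and 0.00352). Between Day 0 and Day 3 in males the summed ranges were 162 to 276 and 119 to 160 CPM for 12 macrophage and monocyte markers, 3.95 to 15 and 1.88 to 3.51 for 8 lymphocyte markers, 256 to 879 and 356 to 420 for 11 smooth muscle and fibroblast markers, 500 to 2590 and 264 to 344 for 7 adipocyte markers, and 4.35 to 19.6 and 5.37 to 71.4 for 9 adrenal cortex markers. At Day 2 the adrenal cortex markers lay at 12.1 to 520 CPM, with all 6 tested positive, a median log2 change of 4.68 and none called, and the skeletal muscle markers at 7.28 to 17.8 CPM, below every Day 0 male. The 10 proximal tubule markers summed to 25700 to 92800 CPM at Day 0, 15600 to 27800 at Day 2 and 20600 to 29100 at Day 3, with 0 called at Day 2 and 1 higher at Day 3. Those of 10 skeletal muscle markers were 26.8 to 139 and 3.21 to 21.8 CPM, of 5 thick ascending limb markers 565 to 2500 and 1660 to 2420, and of 9 distal and collecting duct markers 1240 to 1730 and 858 to 1020. At Day 5 in males, when 8.98% of all genes were higher and 10.2% lower than at Day 0, calls were made in more lists, with 3 of 9 endothelial, 3 of 5 neutrophil and 3 of 9 injured tubule markers tested higher, 5 of the 6 adrenal cortex markers tested higher (medians of the summed level 92.6 against 5.6 CPM), 4 of 10 proximal tubule markers lower (5690 against 43000), 2 of 11 smooth muscle and fibroblast markers higher (1130 against 275), 2 of 9 distal and collecting duct markers higher (2220 against 1380) and none of 7 adipocyte markers called (2860 against 655). The part of these cells in the levels of the immediate early genes was not tested.

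In females no gene of the 10 was called on any day against Day 0. The background was low as well, with 0.774%, 1.26% and 0.185% of all genes higher at Day 2, Day 3 and Day 5. At an unadjusted p under 0.05 there were 0, 0 and 5 of the 10, against 4189 of 16541, 5247 of 17065 and 2548 of 16260 genes tested. DESeq2 called 0, 0 and 1, where it called 6.94%, 10.9% and 2.4% of all genes in either direction. Limma voom with sample quality weights, which lets outlying libraries count for less, called 5, 0 and 7, where it called 50%, 47.8% and 18.9% of all genes. Its calls at Day 2 were *Fos*, *Fosb*, *Jun*, *Junb* and *Egr1*, and at Day 5 the same genes with *Myc* and *Ier3*. No gene had every treated female above every Day 0 female, where 8.66%, 10.1% and 4.97% of all genes did. The median log2 change of the 10 genes was 0.08, 0.09 and 0.69. The 95% interval of the female change of *Fos* was -1.05 to 2.28 at Day 3 and 0.41 to 3.06 at Day 5, so neither is narrow.

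The female Day 0 group was split by mouse 4. *Jun* stood at 24.8, 21.4 and 14.9 CPM in mice 1 to 3 and at 193 CPM in mouse 4, the highest of all 32 libraries. *Nr4a1* stood at 4.67, 14.2 and 8.33 CPM and at 117 CPM in mouse 4, and *Dusp1* at 41.6, 61.9 and 70.2 CPM and at 253 CPM, again the highest of all libraries. *Fos* did not share this gap, with 1.33, 6.24 and 14.5 CPM and 16.6 CPM in mouse 4, nor did *Ier2*, with 43.1 CPM in mouse 4 inside the range of 19.3 to 48.1 CPM of the others. The same library held 564 CPM of smooth muscle and fibroblast markers against 289 to 347 in the other Day 0 females, 463 against 216 to 276 CPM of podocyte markers, 599 against 1430 to 2470 CPM of thick ascending limb markers and 20200 against 28200 to 48400 CPM of proximal tubule markers. Male Day 0 mouse 4 stood apart from its group in some of the same lists, with 879 CPM of smooth muscle and fibroblast markers against 256 to 280 in the other Day 0 males and 565 against 1090 to 2500 CPM of thick ascending limb markers, and it had the highest level of its group in 7 of the 10 genes, *Nr4a1* among them. What part these have in the immediate early gene levels of either library was not tested.

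Without female Day 0 mouse 4, singled out after its values were seen, 3 genes rose at Day 2 (13.4% of all genes), 1 at Day 3 (18.7%) and 4 at Day 5 (4.85%). Every treated female lay above the 3 remaining Day 0 females for 3, 1 and 6 genes (22.3%, 27.4% and 15.8% of all genes). The share of members called at Day 3 was thus below that of all genes. The median log2 change of the 10 genes became 0.96, 0.96 and 1.94, and that of all genes 0.07, 0.08 and 0.07. In the 3 remaining Day 0 females and the treated ones the adrenal cortex markers summed to 4.87 to 351 CPM at Day 0, 3.58 to 5.88 at Day 2, 29 to 2280 at Day 3 and 556 to 1490 at Day 5. The erythroid markers went from 875 to 2690 CPM at Day 0 to 35.1 to 113, 18.8 to 127 and 33.2 to 1470 CPM, the skeletal muscle markers from 68.5 to 257 CPM to 12.2 to 25.3, 9.69 to 22.1 and 15.8 to 33.1 CPM, and the lymphocyte markers from 6.37 to 14.7 CPM to 2.17 to 2.92, 1.46 to 4.98 and 1.88 to 5.9 CPM. Proximal tubule markers went from 28200 to 48400 CPM at Day 0 to 10200 to 18200, 9580 to 18400 and 7270 to 16400 CPM, with no overlap on any day. Adipocyte markers went from 776 to 1600 CPM to 383 to 690, 449 to 765 and 488 to 1530 CPM. Distal and collecting duct markers summed to 1540 to 2600 CPM in the Day 0 females with mouse 4 included. In the treated females they summed to 979 to 1840, 1060 to 1720 and 1250 to 1480 CPM. Podocyte markers went from 216 to 276 CPM at Day 0 to 424 to 615, 409 to 463 and 234 to 478 CPM, with 4, 4 and 0 of 6 called higher. Macrophage and monocyte markers went from 210 to 289 CPM to 103 to 157, 135 to 152 and 112 to 223 CPM. Of these 12 markers 4, 5 and 2 were called lower, where 15%, 20.4% and 7.79% of all genes were. Injured tubule markers went from 1760 to 2360 CPM to 1630 to 2960, 1560 to 6440 and 1790 to 3660 CPM, with 3, 4 and 3 of 10 called higher. Their part in the female values was not tested.

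In edgeR's test *Jun* passed in females on every day without that library and on none with it, while voom with all libraries called it at Day 2 and Day 5 (adjusted p = 0.00264 and 0.0142). The treated females held 50.7, 65.7, 85.5 and 74.3 CPM at Day 2, 90.1, 25.6, 55.9 and 95.5 CPM at Day 3 and 92.7, 58.2, 116 and 143 CPM at Day 5. All of these lay above mice 1 to 3 of Day 0 and below mouse 4. With mouse 4 the log2 changes were 0.11, 0.06 and 0.68 (SE 0.747, 0.811 and 0.788), and none passed. Without it they were 1.76 (SE 0.255, adjusted p = 0.00283), 1.7 (SE 0.441, adjusted p = 0.0179) and 2.33 (SE 0.314, adjusted p = 0.0071).

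*Junb* in females stood at 21.3, 38.6, 40.6 and 76.8 CPM at Day 0 and at 115, 72.4, 122 and 127 CPM at Day 5. With all libraries its Day 5 change was 1.29 (SE 0.354, adjusted p = 0.169), and without Day 0 mouse 4 it was 1.71 (SE 0.28, adjusted p = 0.0133). At Day 2 and Day 3 the changes of *Junb* were 0.61 and 0.54 with that mouse (adjusted p = 0.292 and 0.471) and 1.02 and 0.95 without it (adjusted p = 0.022 and 0.168). *Egr1* stood at 6.62, 25.8, 24.7 and 79 CPM at Day 0, at 26.1, 48.5, 84.3 and 94.9 CPM at Day 2, at 78.3, 14.2, 38.8 and 84.9 CPM at Day 3 and at 83.7, 51, 128 and 198 CPM at Day 5. Its log2 change was 0.89, 0.65 and 1.75 at Day 2, Day 3 and Day 5 (adjusted p = 0.411, 0.546 and 0.265). Without mouse 4 it was 1.73 (SE 0.558, adjusted p = 0.0467), 1.5 (SE 0.7, adjusted p = 0.129) and 2.6 (SE 0.61, adjusted p = 0.0334).

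*Fos* in females stood at 4.04, 13.9, 24.1 and 25.5 CPM at Day 2, at 18, 1.99, 8.34 and 31.4 CPM at Day 3 and at 34.9, 11.7, 32.3 and 50.6 CPM at Day 5. Its log2 changes of 0.8, 0.62 and 1.74 did not pass edgeR's test (adjusted p = 0.512, 0.635 and 0.269). Nor did those without mouse 4, of 1.2, 1.02 and 2.16. Voom with all libraries called *Fos* at Day 2 and Day 5 (adjusted p = 0.0282 and 0.013). *Fos* in female Day 3 mouse 2 was lower than in any other female after Day 0, and this library was the lowest of its group in all 10 genes. *Fosb* stood at 0.0973, 1.37, 0.735 and 7.99 CPM at Day 0 in females and at 2.74 to 6.56 CPM at Day 5, with log2 changes at Day 5 of 0.7 with mouse 4 and 2.5 without it (adjusted p = 0.732 and 0.0515).

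*Nr4a1* in females held 15.1, 8.85, 17.6 and 25.9 CPM at Day 2, 14.2, 4.02, 12.9 and 23.7 CPM at Day 3 and 24.8, 16, 73.4 and 85.1 CPM at Day 5. Its log2 changes of -1.1, -1.41 and 0.46 did not pass, and without mouse 4 they were 0.89, 0.58 and 2.46 (adjusted p = 0.134, 0.445 and 0.0597), so its direction at Day 2 and Day 3 depended on that library. *Dusp1* held 69.5, 66.7, 80.7 and 129 CPM at Day 2, 54.9, 42.4, 50.7 and 54.5 CPM at Day 3 and 61.7, 47.4, 131 and 171 CPM at Day 5. At Day 3 all 4 females lay within the range of Day 0 mice 1 to 3, and the log2 change was -1.09 with mouse 4 and -0.2 without it (adjusted p = 0.181 and 0.419). *Myc* in females stood at 4.9 to 11.5 CPM at Day 0 and at 9.82 to 13 CPM at Day 5, and its log2 change at Day 5 was 0.73 with mouse 4 (adjusted p = 0.314) and 1.12 without it (SE 0.268, adjusted p = 0.0254). *Ier2* and *Ier3* passed edgeR's test in females on no day, with or without mouse 4, and voom called *Ier3* at Day 5 (adjusted p = 0.0274).

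**Figure D2:**
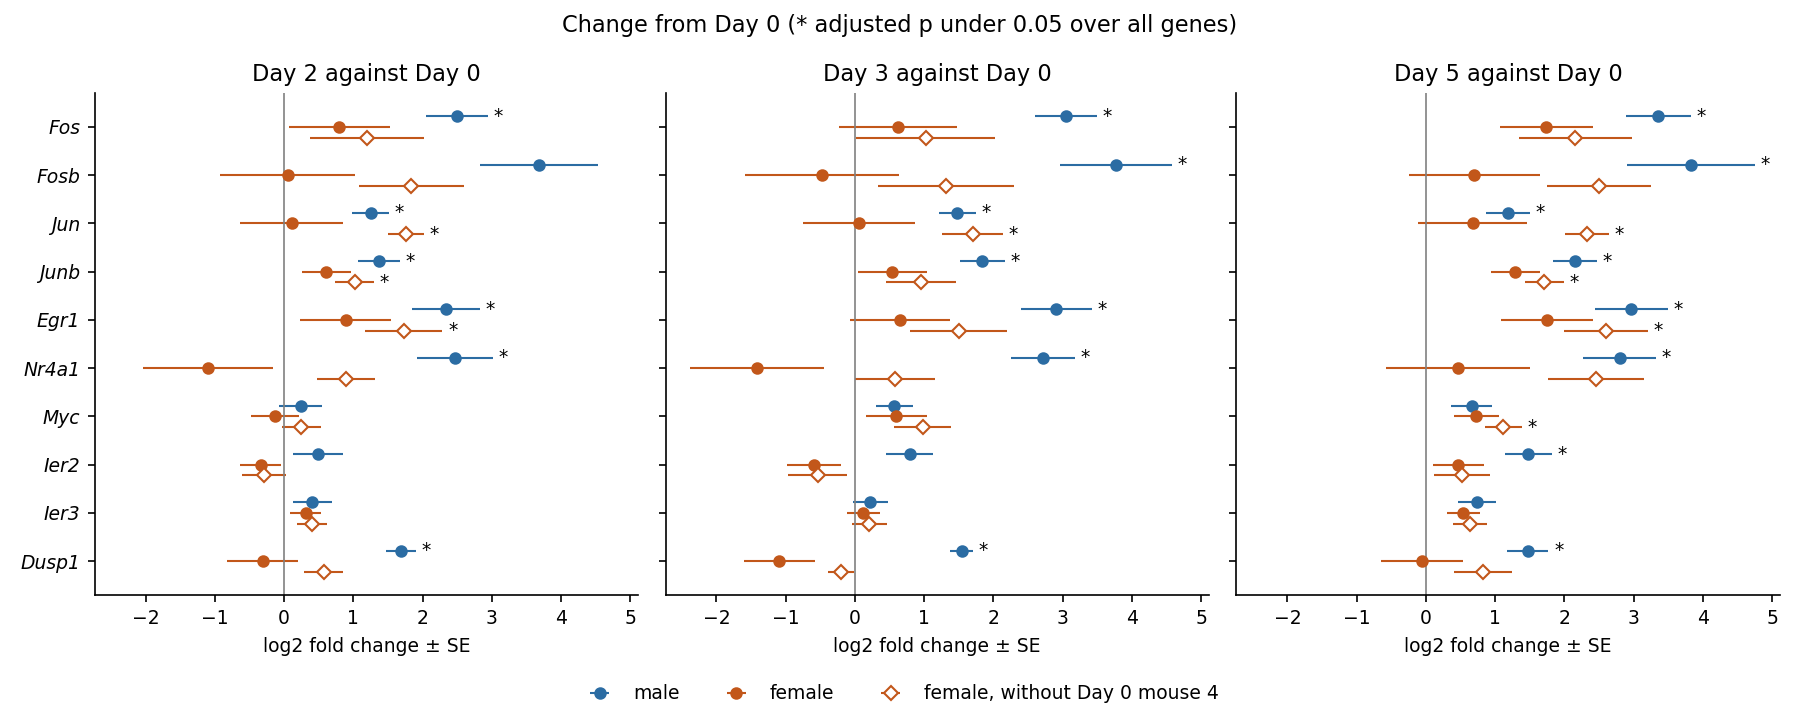
Log2 fold change from Day 0 with its standard error (horizontal axis) for the 10 genes at Day 2, Day 3 and Day 5, for males, for females, and for females without Day 0 mouse 4, with a star where the adjusted p was under 0.05. Males carry 6, 7 and 8 stars and females none, and leaving out mouse 4 moves the female value of *Jun* at Day 2 from 0.11 to 1.76.

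Between consecutive days of sampling few of the genes passed the test. In males no gene of the 10 changed from Day 2 to Day 3, when 0% of all genes did (unadjusted p under 0.05 for 2 of the 10, and 0 called by DESeq2 or voom), and the largest upper bound among the 7 genes that had risen by Day 3 was 1.07 for *Egr1*. From Day 3 to Day 5 in males 37.9% of all genes changed, 20.9% higher and 17.1% lower. Of the 10 only *Ier2* and *Ier3* rose, near the share of all genes that did. Their log2 changes were 0.72 (SE 0.239, adjusted p = 0.0401) and 0.55 (SE 0.152, adjusted p = 0.0208). *Ier3* went from 28.4 to 40.4 CPM at Day 3 to 35.4 to 52.9 CPM at Day 5. These 2 calls fell to 0 after leaving out any one of male Day 3 mice 2, 3 and 4 or male Day 5 mouse 2, to 1 after leaving out male Day 5 mouse 3 or 4, and rose to 3 after leaving out male Day 5 mouse 1. In 1 fit over all 8 groups there were 0, where 25.7% of all genes were called. They come beside the rise of the mitochondrial share from 11.3 to 12.6% at Day 3 to at least 42.5% at Day 5, whose part was not tested.

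In females none of the 10 changed from Day 2 to Day 3 or from Day 3 to Day 5, when 0% of all genes were called each time. DESeq2 and voom called 0 of the 10. An unadjusted p under 0.05 was held by 1 and 3 of the 10, and by 678 of 16974 and 1973 of 16794 genes tested. *Dusp1* was lower in every female of Day 3 than in every female of Day 2, with a log2 difference of -0.77 (SE 0.209, unadjusted p = 0.0036, adjusted p = 0.747). The share of all genes without overlap was not counted here. From Day 3 to Day 5 all 10 values were above 0, with a median of 1.04, and the largest were those of *Nr4a1* (1.88, adjusted p = 0.408) and *Fosb* (1.19, adjusted p = 0.472).

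Males and females were compared on each day. At Day 0 all 10 genes had lower values in males, with a median log2 difference of -1.07, but none passed (0.449% of all genes did). DESeq2 and voom called 0 of the 10. An unadjusted p under 0.05 was held by 2 of the 10 and by 1289 of 16042 genes tested. Without female Day 0 mouse 4 the median was -0.35, 9 of the 10 values were below 0 and none passed (0.495% of all genes did). An unadjusted p under 0.05 was held by 0 of the 10 and by 2634 of 16349 genes tested. *Jun* turned direction without that mouse, with a mean of 31.5 CPM in males and 20.4 CPM in females. Its log2 difference was -1.03 with that mouse and 0.61 without it (adjusted p = 0.866 and 0.383). *Nr4a1* went from -2.41 to -0.42. At Day 2 none passed (1.47% of all genes did), with *Nr4a1* at 1.16 (adjusted p = 0.199) and *Dusp1* at 0.69 (adjusted p = 0.205). An unadjusted p under 0.05 was held by 2 of the 10 and by 2485 of 16608 genes tested. Voom called 2 (19% of all genes) and DESeq2 0 (2.68%). At Day 5 none passed (0.276% of all genes did), with an unadjusted p under 0.05 for 1 of the 10 and for 3094 of 15237 genes tested. *Myc* at Day 5 was lower in every male than in every female, 5.05 to 8.32 against 9.82 to 13 CPM (log2 difference -0.72, SE 0.248, adjusted p = 0.166). It was called by voom (29.7% of all genes) and not by DESeq2 (3.66%). The share of all genes without overlap was not counted here.

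At Day 3, when 21.3% of all genes differed, *Dusp1* and *Nr4a1* were higher in males. *Dusp1* held 120 to 142 CPM in males and 42.4 to 54.9 CPM in females, a log2 difference of 1.3 (SE 0.0973, adjusted p = 5.94e-05), and was called in all 8 fits that left out 1 library. *Nr4a1* held 37.8 to 49.6 CPM in males and 4.02 to 23.7 CPM in females, a log2 difference of 1.69 (SE 0.443, adjusted p = 0.0332), and was called in 2 of these 8 fits. *Fosb*, at 4.63 to 6.18 against 0.223 to 3.19 CPM and an adjusted p of 0.108, did not overlap between the sexes either. The share of all genes without overlap was not counted for this comparison, so the lack of overlap is a description. In 1 fit over all 8 groups, which shares the spread of the other days, neither *Dusp1* nor *Nr4a1* passed (adjusted p = 0.126 and 0.422). In that fit 0.988% of all genes did. The count was 1 without female Day 3 mouse 1, without female Day 3 mouse 3 or without any one of the 4 males, and 4 without female Day 3 mouse 2. The same groups also differed in marker sums. Proximal tubule markers summed to 20600 to 29100 CPM in males and 9580 to 18400 in females (5 of 10 higher in males), endothelial markers to 758 to 813 and 540 to 725 (6 of 9 higher), adipocyte markers to 264 to 344 and 449 to 765 (6 of 7 lower), and distal and collecting duct markers to 858 to 1020 and 1060 to 1720 (5 of 9 lower), none of them overlapping, where 10.6% of all genes were higher in males and 10.7% lower. Injured tubule markers summed to 808 to 2000 and 1560 to 6440 CPM and adrenal cortex markers to 5.37 to 71.4 and 29 to 2280 CPM. Their part in the sex difference was not tested.

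Whether the change from Day 0 itself differed between the sexes was tested as the difference of the male and the female log2 change. None of the 10 passed at Day 2, Day 3 or Day 5 (0%, 0.0114% and 0.243% of all genes did). An unadjusted p under 0.05 was held by 3, 6 and 1 of the 10, and by 738 of 17467, 1252 of 17598 and 2568 of 16907 genes tested. At Day 3 the values were 2.6 for *Dusp1* (SE 0.578, unadjusted p = 0.000391, adjusted p = 0.323), 4.1 for *Nr4a1* (adjusted p = 0.488), 4.21 for *Fosb* (adjusted p = 0.56), 2.43 for *Fos* (adjusted p = 0.64), 2.24 for *Egr1* (adjusted p = 0.626) and 1.37 for *Ier2* (adjusted p = 0.603). For *Jun* it was 1.4 (adjusted p = 0.861), and -0.24 without female Day 0 mouse 4 (adjusted p = 0.859). *Dusp1* alone passed at Day 3 without that library, with 1.72 (SE 0.26, adjusted p = 0.0338), or without mouse 4 of Day 0 in both sexes, with 1.81 (adjusted p = 0.0343). DESeq2 called 0, 2 and 0 genes of the 10 at the 3 days (0.0839%, 0.229% and 2.05% of all genes) and voom 1, 2 and 0 (11.2%, 12% and 32.5%). At Day 3 both tools called *Dusp1* and *Nr4a1* (adjusted p = 0.00693 and 0.0353 with voom). With all libraries edgeR did not show for any of the 10 genes that a rise called in males and not in females differed between them, and for *Dusp1* and *Nr4a1* at Day 3 this depended on the tool.

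The genes also varied together between mice of the same group. Over the 32 libraries, after subtraction of the group mean, Pearson's r between 2 of the genes was over 0.5 in 26 of 45 pairs, with a median of 0.6 (Spearman's rho over 0.5 in 23 pairs, median 0.51). It was highest for *Fos* with *Egr1* (r = 0.93, rho = 0.92), *Junb* with *Egr1* (r = 0.9) and *Nr4a1* with *Dusp1* (r = 0.88), and lowest for *Fosb* with *Ier3* (r = 0.03). Without the 2 libraries farthest from the median of the first gene, *Fos* with *Egr1* stayed at 0.91 and *Nr4a1* with *Dusp1* at 0.79. Without female Day 0 mouse 4 and female Day 3 mouse 2, r was over 0.5 in 19 pairs with a median of 0.44, and *Myc* with *Dusp1* went from 0.19 to -0.24. The genes of a pair share their library and its depth, so these values are a description. Per gene, r with the mitochondrial share within groups lay between -0.53 for *Ier3* and 0.15 for *Myc*.

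**Figure D3:**
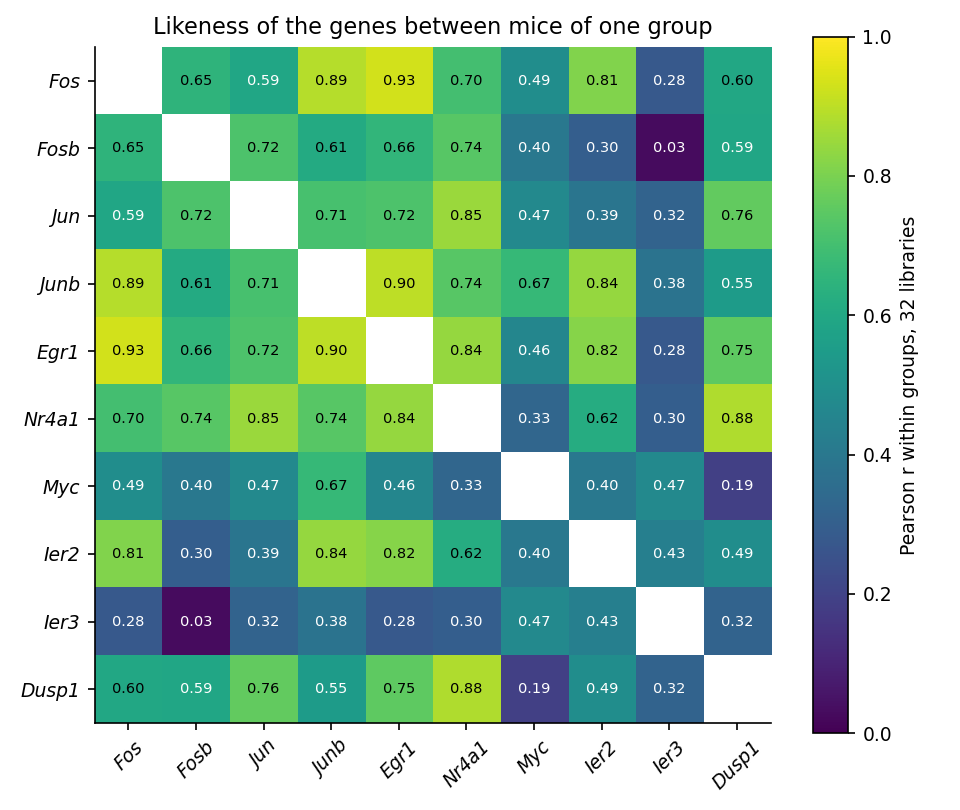
Pearson's r of log2 CPM between each pair of the 10 genes over the 32 libraries after subtraction of the group mean (colour and number). *Fos*, *Junb* and *Egr1* have the highest values with each other, 0.89 to 0.93, and *Ier3* and *Myc* have the lowest values.

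Averaged over the 10 genes after scaling each to SD units over the libraries, the mice ranked from female Day 5 mouse 4 (1.28) to male Day 0 mouse 1 (-1.68). Female Day 3 mouse 2 stood among the Day 0 mice, at -1.61, beside female Day 0 mouse 1 at -1.5. Female Day 0 mouse 4 ranked 4 of 32 at 0.96. This mean, like the genes it is made of, is a description.

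**Figure D4:**
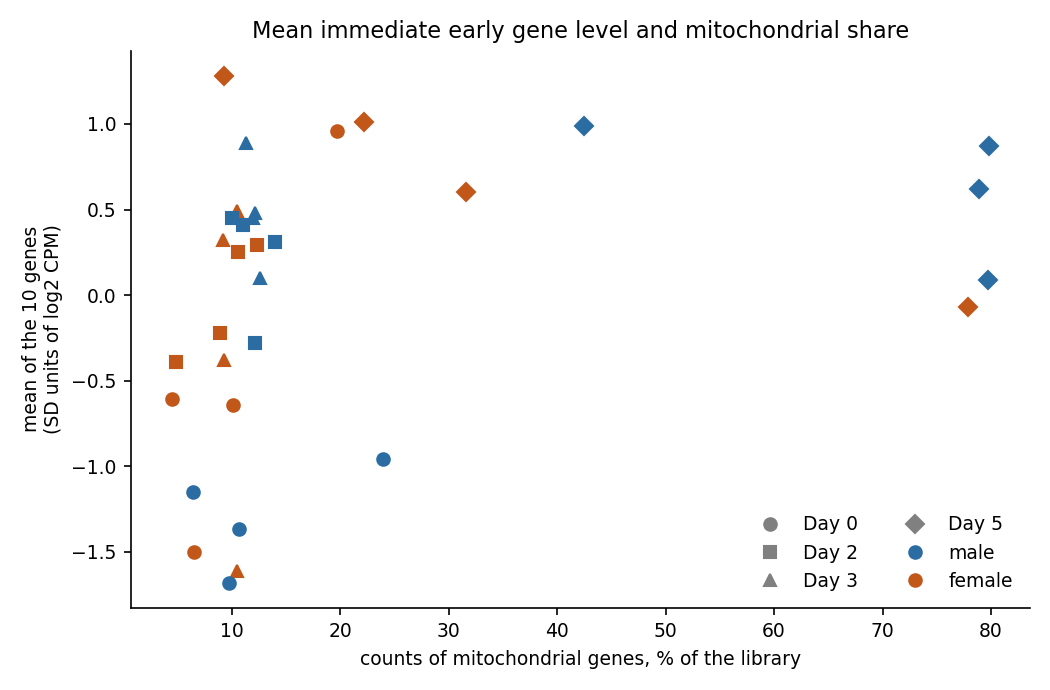
Mean of the 10 genes in SD units of log2 CPM (vertical axis) against the share of counts on mitochondrial genes (horizontal axis, percent) for the 32 libraries, with the day as the symbol and the sex as the colour. The 6 libraries over 30% are all of Day 5 and lie between -0.07 and 0.99, and male Day 0 mouse 4, at 24%, lies at -0.96 with the other Day 0 males.

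Genes outside the 10 with the most similar pattern were sought over the 24 libraries of Day 0 to Day 3, among 13182 protein-coding genes. For the mean of the 10 genes these were *Cyr61* (r = 0.93, and 0.91 over all 32 libraries), *Zfp36* (0.91), *Btg2* (0.86), *Apold1* (0.84) and *Egr2* (0.83). For *Fos* they were *Cyr61*, *Egr2* and *Apold1* (0.85, 0.83 and 0.81) and for *Egr1* *Cyr61*, *Zfp36* and *Raph1* (0.88, 0.87 and 0.86). *Myc* had other neighbours, *Rcan1*, *Pmaip1* and *Tsc22d1* (0.84, 0.83 and 0.83), of which *Rcan1* fell to 0.64 over all 32 libraries.

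Of 50 other immediate early and delayed early genes, 9 rose and none fell in males at Day 2, with a median log2 change of 0.8, where 1.81% of all genes rose and 1.35% fell. At Day 3 in males 15 rose and 1 fell of 49 tested (median 0.69), against 11.4% and 13.1% of all genes, and at Day 5 22 rose and none fell of 47 tested (median 1.04), against 8.98% and 10.2%. The members of this list with the largest changes were *Per1*, a clock gene that CREB also switches on, at 2.46 at Day 2 and 2.11 at Day 3 (adjusted p = 0.000385 and 0.00598), *Btg2*, a brake on proliferation that p53 switches on, at 2.22 and 2.52 (adjusted p = 0.032 and 0.00774), *Egr2* at 4.25 at Day 3 (adjusted p = 0.0124), *Plk2*, also a p53 target, at 1.96 at Day 2 (adjusted p = 0.0314), *Cyr61* at 1.71 at Day 2 (adjusted p = 0.0241) and the stress factor *Atf3* at 2.89 at Day 3 (adjusted p = 0.0391).

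In females the same list held genes that passed edgeR's test with all libraries. *Plk2* rose by 2.63 (SE 0.274, adjusted p = 0.00382) and *Klf10* by 2.13 (adjusted p = 0.0346) at Day 2. At Day 3 *Fosl1*, a slower relative of *Fos*, rose by 3.71 (adjusted p = 0.0499), *Socs3*, a brake on cytokine signals, by 2.82, *Plk2* by 2.44 and *Klf10* by 2.38 (adjusted p = 0.0465 each). Of 49 genes tested 2 rose at Day 2, 4 rose and 1 fell at Day 3 and 2 rose at Day 5, with medians of 0.39, 0.55 and 0.64, where 0.774%, 1.26% and 0.185% of all genes rose. Without Day 0 mouse 4, 24 rose and 2 fell at Day 2, 23 rose and 5 fell at Day 3 and 23 rose at Day 5, where 13.4%, 18.7% and 4.85% of all genes rose and 15%, 20.4% and 7.79% fell.

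Kinases and factors upstream were counted in the same way, and at Day 3 in males 11.4% of all genes rose and 13.1% fell. Of 18 ERK, JNK and p38 kinases and their activators, none changed in males at Day 2 (median 0.13), and 2 rose and 2 fell at Day 3 (median 0.12): *Braf* and *Rps6ka3* by 0.74 and 0.51 (adjusted p = 0.029 and 0.0313), and *Map2k2* and *Mapk3* at -0.9 and -0.37 (adjusted p = 0.0175 and 0.0381). Of 14 transcription factors that act on immediate early promoters, none changed at Day 2 and 3 rose at Day 3 in males, *Stat3* by 0.79, *Mef2a* by 0.61 and *Creb1* by 0.46 (adjusted p = 0.0286, 0.0232 and 0.0232). At Day 5 in males, where 8.98% of all genes rose and 10.2% fell, 1 kinase rose and 1 fell, and no factor passed. In females none of either list passed on any day with all libraries.

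Around *Myc*, 13 partners and antagonists and 20 ribosome biogenesis genes and other textbook targets were counted. At Day 3 in males, with the same shares of all genes, 3 genes whose proteins oppose MYC moved in both directions. *Mga* and *Mxd4* rose by 0.99 and 0.58 (adjusted p = 0.00532 and 0.0337), and *Mxd3* fell by 2.13 (adjusted p = 0.0439). None of the 13 changed at Day 2 in males, and 2 rose at Day 5, where 8.98% of all genes rose. In females none of the 13 passed on any day. Of the 20 targets 2 fell at Day 2 in males, *Odc1* (-1.38, adjusted p = 0.0402), the first enzyme of polyamine synthesis, and the transferrin receptor *Tfrc* (-1.24, adjusted p = 0.0408). At Day 3 in males 6 fell and none rose, with *Nme1* at -1.88, *Odc1* at -1.54, *Tfrc* at -0.94 and *Nop16* at -0.77 (adjusted p = 0.0372, 0.0135, 0.00795 and 0.0271), and at Day 5 6 fell, where 1.35%, 13.1% and 10.2% of all genes fell at the 3 days. The medians of the 20 were -0.12, -0.07 and -0.27, against 0.03, 0.02 and 0.04 for all genes. In females none of the 20 changed at Day 2, 1 fell at Day 3, *Nme1* by 1.97 (adjusted p = 0.0499), and 1 fell at Day 5, where 1.16%, 4.28% and 0.0738% of all genes fell.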

How the data were processed

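Total RNA of whole kidneys was sequenced as 150-base read pairs on an Illumina HiSeq4000. The authors deposited raw counts of reads per gene and FPKM values for 32 libraries. The labels' processing notes name HTSeq and DESeq2 and list GRCm39 and mm39, while the coordinates in the deposited table are those of GRCm38, which the study's methods also name. The aligner and the strandedness are not given in the sources used here. The deposited FPKM were used only to compare levels between genes.

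Counts were tested with edgeR 4.0.16 (R 4.3.3) by its quasi-likelihood test, with TMM factors, filterByExpr and robust estimates, on the groups compared only, and p-values were adjusted over all genes tested (Benjamini-Hochberg, threshold 0.05). The 95% intervals are normal intervals without adjustment. log2 CPM used a prior count of 2. The scripts were tested on simulated data. Each library was 1 mouse, and mouse numbers were not taken to pair the mice between groups.

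The 10 members and the gene lists were chosen with earlier results of these data known. Named beside the members are at most 4 genes of each list and comparison, those with the largest changes that passed at Day 2 or Day 3, and the genes of most similar pattern. Alternatives were DESeq2 1.42.0, limma 3.58.1 (voom), other scaling and filters, a replicate block, 1 fit over all groups, and fits without single libraries, without mitochondrial genes or without libraries over 30% mitochondrial counts. Leaving out mouse 4 of Day 0 in both sexes, or female Day 0 mouse 4 with female Day 3 mouse 2, was chosen after seeing the data.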

Additional observations from a re-analysis of the deposited data

Results flagged for a closer look

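In each of 80 groups of 4 mice (10 genes in 8 groups) the gap between the highest or lowest mouse and its neighbour was compared with Dixon's 95% critical value, which chance passes in about 1 of 20 groups. The gap was over it in 7. In 5 of these the mouse was female Day 0 mouse 4, far above the other Day 0 females, with 193 CPM of *Jun*, 117 CPM of *Nr4a1*, 253 CPM of *Dusp1*, 7.99 CPM of *Fosb* and 11.5 CPM of *Myc*. The others were 15 CPM of *Nr4a1* in male Day 0 mouse 4 and 53.1 CPM of *Ier3* in male Day 2 mouse 4. The genes of one library are not independent, so the 5 values of female Day 0 mouse 4 are 1 library standing apart.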

How the results depend on the processing

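Under the alternatives that left out no single mouse, 124 of 143 counts of called genes stayed within 1.5 times the reported one. Reported counts of 0 that stayed 0 are among the 124. The figure therefore says little about how stable the calls that were made are. The mouse numbers were not taken to pair the mice, since no comparison had all 4 correlations over 0.1. The nearest was males against females at Day 0, with 3 of 4 over it (-0.07 to 0.48). With the number as a replicate block the count was 0, 1 and 7 for males at Day 2, Day 3 and Day 5 (0.0312%, 0.566% and 13% of all genes). For males against females at Day 3 it was 1 (17.6%). With limma voom and sample quality weights the counts were 5 and 7 for females at Day 2 and Day 5 (50% and 18.9% of all genes), 2, 5 and 1 for males against females at Day 2, Day 3 and Day 5 (19%, 42.5% and 29.7%), and 1 and 2 for the difference of the responses at Day 2 and Day 3 (11.2% and 12%). DESeq2 gave 1 for females at Day 5 (2.4%) and 2 for the difference of the responses at Day 3 (0.229%). In 1 fit over all 8 groups the count was 1 for females at Day 5 (10.9% of all genes). It was 0 for males from Day 3 to Day 5 (25.7%) and 0 for males against females at Day 3 (0.988%). With no filter on low counts the last pair of counts were 0 and 1 (18.5% and 9.89%). It was 4 for females at Day 3 without female Day 0 mouse 4 and female Day 3 mouse 2, where 36.8% of all genes were called in either direction, and 1 for the difference of the responses at Day 3 without mouse 4 of Day 0 in both sexes (0.0503%). The cause was not tested.

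Leaving out 1 mouse at a time, the counts ranged from 0 to 7, 6 to 8 and 5 to 8 for males at Day 2, Day 3 and Day 5, from 0 to 3, 0 to 1 and 0 to 4 for females, from 0 to 3 for males from Day 3 to Day 5, from 1 to 4 for males against females at Day 3, from 0 to 1 for the difference of the responses at Day 3, and were 0 in the others.

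The log2 changes that turned sign were not called. In females at Day 2 they became 0.55 for *Nr4a1*, 0.39 for *Myc* and 0.52 for *Dusp1* with voom, and 0.02 for *Dusp1* with the replicate block. At Day 3 *Fosb* became 0.02 with the replicate block, 1.80 with voom and 1.69 without the mice named above, and *Nr4a1* 0.54 and 0.89 with the latter pair of settings. At Day 5 *Dusp1* became 0.13 with the replicate block, 0.69 with voom and 0.50 without libraries over 30% mitochondrial counts. In males at Day 3 *Ier3* became -0.04 with voom. Leaving out 1 mouse at a time, the ranges at Day 2 in females were -0.33 to 1.84 for *Fosb*, -0.20 to 1.76 for *Jun*, -1.46 to 0.89 for *Nr4a1*, -0.24 to 0.25 for *Myc* and -0.56 to 0.57 for *Dusp1*. At Day 3 in females they were -0.04 to 1.02 for *Fos*, -0.87 to 1.31 for *Fosb*, -0.26 to 1.70 for *Jun*, -1.81 to 0.58 for *Nr4a1* and -0.05 to 0.31 for *Ier3*, and at Day 5 -0.42 to 0.83 for *Dusp1*. The range was -0.09 to 0.37 for *Myc* in males at Day 2 and -0.24 to 1.73 for the difference of the responses of *Jun* at Day 3. The setting without libraries over 30% mitochondrial counts could not be fitted for males at Day 5, where no library was left. *Fosb* had 0 to 19 counts in Day 0 males.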
